A study of Mus musculus with 8 samples.

Results

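Apolipoprotein D (Apod) was followed through 8 mammary tumour arrays. It was chosen from the measured values, as the gene with the widest higher signal in SKI-606 tumours among genes whose groups of samples did not overlap. Its values between the groups are therefore a description, and no test of that difference is given. Apod is 1 of 18193 genes that could be compared, and 2 of the 45101 probes of the array are annotated to Apod alone. The platform annotation assigns one to the RefSeq transcript NM_007470 and the other to the sequence AV332635, and they are named here by these.

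Of the 8 samples, 4 came from mice given SKI-606 and 4 from mice given vehicle. SKI-606 (bosutinib) blocks Src and Abl kinases, and was given by oral gavage at 100 mg/kg. Both groups were female MMTV-PyMT mice, FVB/N-Tg(MMTV-PyVT)634Mul/J, in which a mammary tumour virus promoter drives polyoma middle T antigen in mammary epithelium, so all 8 are tumours with the transgene and none is normal gland. The sources used here state neither age, tumour stage nor length of treatment. The p-values measure the spread between these samples, which may in part be technical, since the labels do not list the animals. The title of the series names differentiation of these tumours as its subject.

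Apolipoprotein D is a small secreted glycoprotein of the lipocalin family, barrel-shaped proteins that hold a hydrophobic ligand in a pocket. It binds arachidonic acid and progesterone. In human breast it is abundant in the fluid of gross cysts, and cultured fibroblasts make more of it when they stop dividing. In rodents it is made by Schwann cells and by fibroblasts around vessels, among others, and it is known as a protein of ageing and oxidative stress.

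In the mouse, Apod lies on the minus strand of chromosome 16, from 31296192 to 31314808 (GRCm38.p6), with 3 RefSeq transcripts. The stretch from 250 bases before to 50 after the start of the gene, chr16:31314759-31315058, is shown as the promoter window of the gene; the start of the transcript NM_007470 itself was not looked up. It comes from RefSeq (GRCm38.p6) and reads 5′ to 3′ on the strand of the gene, with capitals at its longest run of A.
Apod: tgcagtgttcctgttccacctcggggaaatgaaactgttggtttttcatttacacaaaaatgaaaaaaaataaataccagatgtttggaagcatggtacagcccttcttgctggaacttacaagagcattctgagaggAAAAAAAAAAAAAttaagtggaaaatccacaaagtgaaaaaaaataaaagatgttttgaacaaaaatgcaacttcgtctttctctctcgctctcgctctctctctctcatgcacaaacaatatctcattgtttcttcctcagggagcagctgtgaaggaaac
The window is rich in A and T. Its G and C content was 37.3%, against a median of 52.7% over 32851 promoters of the same length, of which 6.2% had less. The run in capitals is 13 bases long, and 1.26% of promoters held a run of A at least as long. Of 9 short motifs searched on both strands, 0 matched. The TATA box, TATAAA, occurred in 13.6% of all promoters. The E-box CACGTG was found in 7.2% of them. The AP-1 site TGANTCA was found in 7.8%. The CCAAT box was found in 37.4%, and the GC box GGGCGG in 35.7%. The nuclear receptor core AGGTCA was found in 16.3%. The steroid receptor core TGTTCT was found in 19.0%. The STAT site TTCNNNGAA was found in 8.3%. The TEAD site GGAATG was found in 14.7%. No match says only that these letters are not in this window.

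Each sample was read on 1 array, and values are signals recovered from the deposited ratios and quantile normalized. Array medians before normalization were 15 to 16 in SKI-606 and 15 to 23 in vehicle samples, and with 4 arrays a group every value has limited precision. Over all probes, SKI-606 samples 1 and 4 stood apart on the first principal component (34.0% of the variance), and vehicle sample 3 on the second (17.9%). These 3 samples also had the highest mean log2 values of squamous keratinization genes, 8.81 and 8.91 in the SKI-606 pair and 8.88 in the vehicle sample, against 4.96 to 5.83 in the other 5. In limma, 0 of 45037 probes (0%) passed an adjusted p of 0.05, while 3771 had a p under 0.05 before adjustment.

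The NM_007470 probe gave normalized signals of 667, 891, 445 and 1033 in SKI-606 samples 1 to 4, against 144, 104, 114 and 302 in vehicle samples 1 to 4. SKI-606 sample 4 was the highest of all and SKI-606 sample 3 the lowest of its group, while vehicle sample 4 stood above the other vehicle samples. The lowest SKI-606 signal was 1.47 times the highest vehicle signal, so the groups did not overlap, as the choice of the gene requires. The means were 759 ± 258 in SKI-606 and 166 ± 92.3 in vehicle samples (SD, n = 4 each), a ratio of 4.58. On the scale of log2(signal + 16), on which a fold change understates that of dim genes, the means were 9.53 ± 0.52 in SKI-606 and 7.39 ± 0.64 in vehicle samples (SD, n = 4 each). The log2 fold change, SKI-606 minus vehicle, was 2.14 ± 0.35 (SE, as after every log2 fold change here). Within the groups the probe also varied, by 2.32 times between the highest and the lowest SKI-606 sample and 2.90 times between the highest and the lowest vehicle sample.

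The AV332635 probe was dim. It gave 12.4, 10.1, 15.5 and 1.25 in SKI-606 samples 1 to 4, against 17.5, 3.13, 5.63 and 1 in vehicle samples 1 to 4. The groups overlapped, and SKI-606 sample 4, the highest on the first probe, was the lowest of its group on this one. The means were 9.81 ± 6.12 in SKI-606 and 6.81 ± 7.37 in vehicle samples (SD, n = 4 each), with a log2 fold change of 0.19 ± 0.25. From 3.6% to 47.2% of the probes of an array were dimmer than it in SKI-606 and 0.7% to 50.4% in vehicle samples, where the first probe had 92.4% to 96.6% below it in SKI-606 and 76.8% to 89.2% in vehicle samples. Over the 8 samples Pearson's r between the log2 values of the probes was 0.01, as a description. Which part of the gene the dim probe reads was not analysed here, and further values of Apod are those of the NM_007470 probe.

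**Figure D1:**
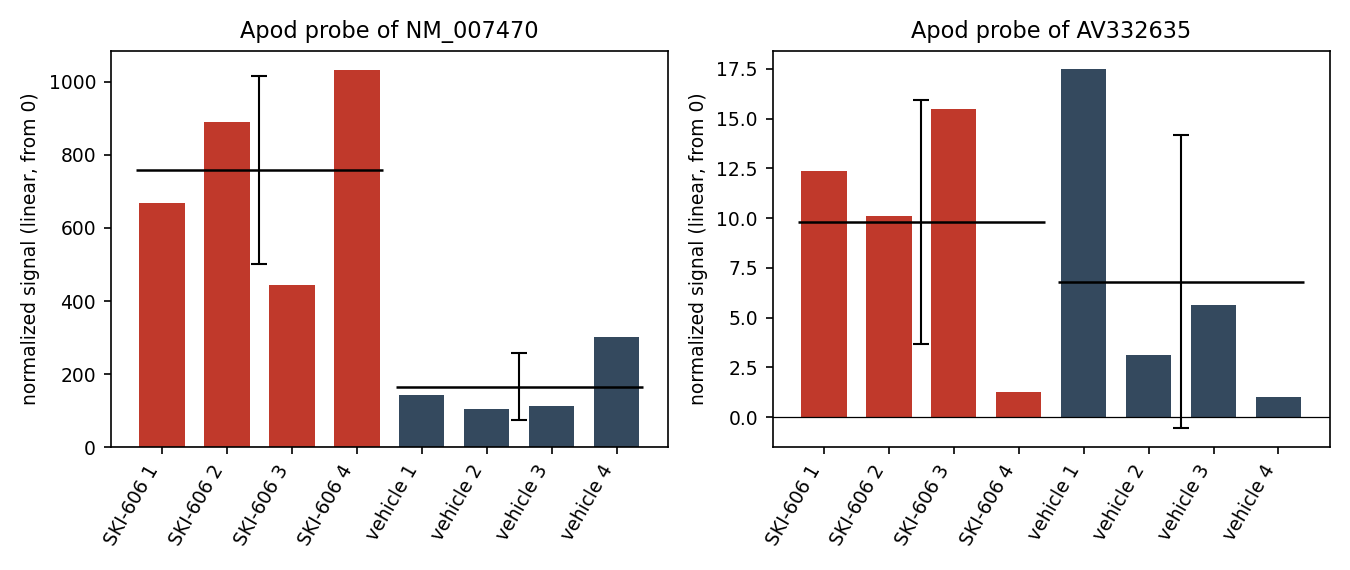
Normalized signal (vertical axis, linear) of the Apod probes NM_007470 (left) and AV332635 (right), 1 bar per sample, SKI-606 samples 1 to 4 left of vehicle samples 1 to 4. Horizontal lines are group means and error bars the SD (n = 4 each); on the left the means are 759 in SKI-606 and 166 in vehicle samples, and on the right, where no bar passes 17.5, the groups overlap.

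Without the 3 samples that stood apart, Apod was at 891 and 445 in SKI-606 samples 2 and 3 and at 104 to 302 in vehicle samples, with a log2 fold change of 1.82. Leaving out each sample in turn gave 1.97, without SKI-606 sample 4, to 2.45, without vehicle sample 4.

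The place of Apod among other genes depended on the setting more than its own difference did. Among the 18193 genes, each read by its brightest probe, 435 (2.39%) had every SKI-606 value above every vehicle value and 372 (2.04%) every SKI-606 value below. Apod at 2.14 was followed by Prelp, a proteoglycan gene of connective tissue, at 2.12 ± 0.54, and Ecrg4, which encodes a secreted peptide precursor, at 1.99 ± 0.48. The complement protease gene C1ra stood at 1.83 ± 0.44, and the matrix gene Fbln1 at 1.70 ± 0.38. Just outside the choice were wider differences with overlapping groups. These were the granzyme genes Gzmd at 2.74 ± 1.06 and Gzmg at 2.32 ± 1.03, and the hair genes Krtap8-1, Krt73 and Krtap13-1 at 2.30 ± 1.91, 2.30 ± 1.87 and 2.26 ± 1.41. The hair genes were high in the 3 samples that stood apart. With overlapping genes counted, Apod ranked 17. Among genes without overlap it ranked 1 also without normalization and with scaling to a common array median, 2 with a pseudocount of 64, 16 with a pseudocount of 1 and 26 on the deposited ratios. With samples left out in turn its rank was 1 to 9, and without the 3 samples that stood apart it was 3.

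The other lipocalins, carriers of small hydrophobic ligands like Apod, were mostly dim, and the median of their log2 fold changes lay near that of all genes. Of 21 listed 17 were measured, 6 with log2 fold changes above 0 and 11 below. Only 3 of the 17 had a mean signal of at least 50, so the median of the list says little of how the family changed. Their median was -0.03, against -0.02 over all genes, of which 47.1% were above 0. Single members ran from -1.11 to 1.03, the highest being Ambp at 1.03 ± 0.54, which was dim and had overlapping groups. At an unadjusted limma p under 0.05 there was 1 of the 17 on the higher side, where 6.08% of all genes were, and 0 on the lower, where 4.34% were. That gene was Orm2, an acute phase protein gene, at 0.51 ± 0.22. It was dim, at 17.1 ± 6.34 in SKI-606 and 7.5 ± 6.04 in vehicle samples (SD, n = 4 each), and the groups overlapped. Lcn2, whose product binds siderophores, was bright and level, at 10933, 11597, 11297 and 10692 in SKI-606 samples 1 to 4, against 10648, 11196, 10267 and 11597 in vehicle samples 1 to 4. Its log2 fold change was 0.03 ± 0.12. Rbp4, the retinol carrier of plasma, had 75.4, 143, 31.6 and 38.9 in SKI-606 samples 1 to 4, against 53.5, 22.4, 42.1 and 55.1 in vehicle samples 1 to 4. SKI-606 sample 2 was the highest, the groups overlapped, and the log2 fold change was 0.45 ± 0.37. Ptgds, both a lipocalin and a prostaglandin D synthase, was also dim, with means of 15.3 in SKI-606 and 32.2 in vehicle samples. Its log2 fold change was -0.62 ± 0.37. Orm1, a close relative of Orm2 whose probes may cross-hybridize, stood at 0.98 ± 0.53. The major urinary protein gene Mup5 had 453 in vehicle sample 2 and at most 22 elsewhere. Recovered signals of 4 members, Orm3, Lcn3, Lcn5 and Obp1a, were below 10 in every sample.

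Other apolipoprotein and lipid carrier genes had a median of 0.43, with 17 of 24 measured above 0 and 7 below. None passed the adjusted threshold. At an unadjusted p under 0.05, 5 were higher (6.08% of all genes) and 1 lower (4.34%), among them Clu, which encodes the secreted chaperone clusterin. It had 7434, 5600, 4939 and 7078 in SKI-606 samples 1 to 4, against 3888, 3691, 3283 and 3488 in vehicle samples 1 to 4. Every SKI-606 value was above every vehicle value, and the log2 fold change was 0.78 ± 0.16. Pltp, the phospholipid transfer protein gene, stood at 0.86 ± 0.29, Lrp1, an endocytic lipoprotein receptor gene, at 1.13 ± 0.40, and Apoe, a lipid carrier gene of macrophages, at 0.74 ± 0.28, with overlapping groups. The other two were Apoc4 at 0.61 ± 0.27 and Apool, a mitochondrial protein gene, at -0.50 ± 0.21, named after their values were seen.

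Proteins reported to bind apolipoprotein D are basigin, its receptor in human cells, and the leptin receptor. The basigin gene Bsg was bright in both groups, at 3806 ± 499 in SKI-606 and 3315 ± 671 in vehicle samples (SD, n = 4 each), with a log2 fold change of 0.21 ± 0.18. Lepr was dim, at 25.0 ± 13.1 in SKI-606 and 19 ± 19.9 in vehicle samples (SD, n = 4 each), with 0.35 ± 0.38. In both the groups overlapped. Enzymes that release or convert arachidonic acid, a ligand of apolipoprotein D, had a median of 0.17 over 19 genes, 13 above 0. Among them Alox5ap, whose product presents arachidonic acid to 5-lipoxygenase, was the 1 with an unadjusted p under 0.05, where 6.08% of all genes were higher, at 0.96 ± 0.36, and Ptgis, the prostacyclin synthase gene, stood at 0.99 ± 0.47. Intracellular binders of fatty acids and retinoids had a median of 0.11 over 12 genes, 0 of them at that threshold, with the retinoic acid binder Crabp1 at 0.81 ± 0.37.

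Regulators of Apod known from other systems, and genes of the states in which it is abundant, had medians of 0.04 to 0.18 here. On the deposited ratios the medians of nuclear receptor and growth arrest genes were 0.42 and 0.39, where that of all genes was 0.16. Growth arrest genes were at 0.36 with scaling to a common array median, where all genes were at 0.10. Nuclear receptors were at 0.27 without SKI-606 sample 2 and 0.26 with a pseudocount of 1. They were lower, at 0.07, with a pseudocount of 64, at 0.11 without normalization and at 0.12 without the 3 samples that stood apart. Nuclear receptor and p53 family genes had a median of 0.18 over 16 genes, 12 above 0. The retinoic acid receptor gene Rara, at 0.46 ± 0.18, and Nr1h3, which encodes the sterol receptor LXR alpha, at 0.44 ± 0.19, were the 2 higher at an unadjusted p under 0.05, against 6.08% of all genes. Of 24 growth arrest genes 15 were above 0, and the median was 0.11. Before adjustment 4 of these were higher, as were 6.08% of all genes, and 1 lower, as were 4.34%. The lower one was the cell cycle inhibitor Cdkn2c, at -0.52 ± 0.23, named after its value was seen. Gas6, a secreted ligand of TAM receptors that was found in growth-arrested fibroblasts, had 2481, 1459, 1252 and 2198 in SKI-606 samples 1 to 4, against 1001, 890, 542 and 915 in vehicle samples 1 to 4. These groups did not overlap, and the log2 fold change was 1.11 ± 0.27. Pmp22, a myelin protein gene also known from growth-arrested fibroblasts, stood at 0.87 ± 0.29, with overlapping groups. Antioxidant and stress genes were 10 above and 10 below 0, with a median of 0.04. At an unadjusted limma p under 0.05, 3 of the 20 were higher, where 6.08% of all genes were, and 0 lower, where 4.34% were. In 2 of the 20 every SKI-606 value was above every vehicle value, as in 2.39% of all genes. The secreted enzyme genes Gpx3 and Sod3 stood at 1.42 ± 0.40 and 1.80 ± 0.64, and the metallothionein gene Mt1 at -0.63 ± 0.29. In limma 0 genes of these 3 lists passed after adjustment.

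**Figure D2:**
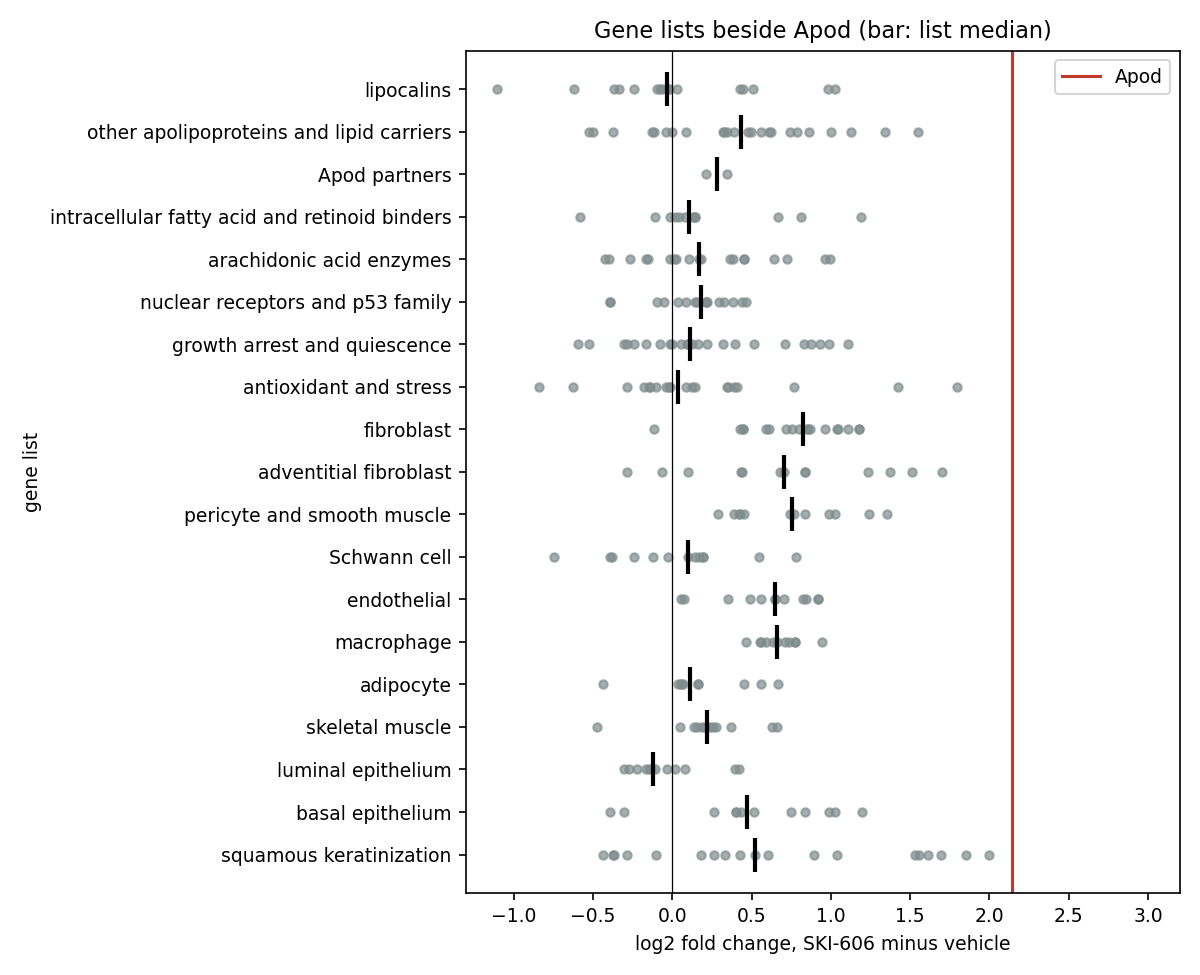
Log2 fold changes, SKI-606 minus vehicle (horizontal axis), of the measured genes of 19 lists (rows), 1 point per gene, with a black bar at the median of the list and a red line at Apod (2.14). All other listed genes lie left of Apod, and the medians run from -0.12 in luminal epithelium to 0.82 in fibroblasts.

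Markers of stromal cells lay above 0 in most cases, although 0 passed the adjusted threshold, and their part in the difference of Apod was not tested. In bulk tissue, more cells of a type and more RNA per cell cannot be told apart. Of 18 fibroblast genes 17 were above 0, with a median of 0.82, 12 higher at an unadjusted p under 0.05, where 6.08% of all genes were, and 6 without overlap, where 2.39% were. Their summed signal was 23910 to 47671 in SKI-606 and 18322 to 23872 in vehicle samples. Serpinf1, a secreted protein gene, stood at 1.18 ± 0.28, the collagen gene Col6a3 at 0.96 ± 0.23 and the receptor gene Pdgfra at 1.04 ± 0.27. Adventitial fibroblast genes, of the sheath around vessels, were above 0 in 11 of 13 cases, with a median of 0.71 and summed signals of 5108 to 10847 in SKI-606 and 2574 to 5679 in vehicle samples. Among them Pi16, a marker of these cells, stood at 1.37 ± 0.35. All 12 pericyte and smooth muscle genes, some of which are also in the basal epithelial list, were above 0, at a median of 0.75. Their sums were 2217 to 7856 in SKI-606 and 1808 to 2786 in vehicle samples. Endothelial genes had 0.65, with 12 of 12 above 0 and sums of 1207 to 2411 in SKI-606 and 829 to 1381 in vehicle samples. Macrophage genes had 0.66, with 11 of 11 above 0 and sums of 8225 to 19274 in SKI-606 and 4997 to 9824 in vehicle samples. At an unadjusted limma p under 0.05, 5 adventitial, 3 pericyte, 5 endothelial and 4 macrophage genes were higher, where 6.08% of all genes were. Higher without overlap were 1, 2, 0 and 2 of them in this order, where 2.39% of all genes were. Without the 3 samples that stood apart, the medians of these 5 lists, from fibroblast to macrophage, were 0.43, 0.20, 0.30, 0.13 and -0.03. Apod was then at 1.82, but it was chosen for a wide difference in these data, so this contrast says nothing of the cell types.

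Schwann cell genes, of a cell type known for Apod, had a median of 0.10 over 13 genes, 7 above 0 and 6 below, with 0 at an unadjusted p under 0.05 and sums of 3563 to 6085 in SKI-606 and 4610 to 5017 in vehicle samples. With each sample left out, that median ran from -0.10, without vehicle sample 2, to 0.17, without SKI-606 sample 2. Sox10, which mammary epithelium can also make, had 2092 ± 683 in SKI-606 and 2632 ± 121 in vehicle samples (SD, n = 4 each). Adipocyte genes had a median of 0.11 and sums of 1334 to 7009 in SKI-606 and 1128 to 3214 in vehicle samples. Their median was -0.25 without SKI-606 sample 2 and 0.51 without vehicle sample 4. The fat cell gene Fabp4 had 861, 3605, 239 and 1214 in SKI-606 samples 1 to 4, against 1250, 270, 366 and 1129 in vehicle samples 1 to 4, and was highest in SKI-606 sample 2. Luminal epithelial genes, the defining markers of the labelled tissue, were bright in all 8 samples, with a median of -0.12 over 12 genes and sums of 29070 to 34634 in SKI-606 and 32013 to 36838 in vehicle samples. That median was 0.05 with scaling to a common array median and on the deposited ratios. Medians of the last lists moved with single samples, and those of squamous and skeletal muscle genes changed sign. For basal epithelial genes the median was 0.47, with 0.30 (without SKI-606 sample 1) to 0.94 (without SKI-606 sample 2) when each sample was left out, and -0.0002 without the 3 samples that stood apart. For squamous keratinization genes it was 0.52, with -0.12 (without SKI-606 sample 4) to 1.35 (without vehicle sample 3), and -0.34 without those 3. For skeletal muscle genes it was 0.22, with -0.69 (without SKI-606 sample 2) to 1.47 (without vehicle sample 1), and 0.74 without those 3. Apart from 3 squamous genes, no gene of these cell type lists was at 0 in any sample.

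The level of Apod relative to these lists is given sample by sample as a description. Because Apod was chosen for a wide difference without overlap, and the mean log2 value of every list differed less, a difference between the groups remains by that choice and says nothing of the cell types. The mean log2 value of a list in a sample was taken from the log2 value of Apod in it. Relative to fibroblast genes Apod was at -0.64 to -0.04 in SKI-606 and -2.14 to -0.94 in vehicle samples. Relative to adventitial fibroblast genes it was at 0.95 to 1.83 in SKI-606 and -0.65 to 0.67 in vehicle samples. For macrophage genes the values were 0.23 to 1.28 in SKI-606 and -1.34 to 0.01 in vehicle samples. For endothelial genes they were 1.93 to 3.05 in SKI-606 and 0.44 to 1.61 in vehicle samples, and for luminal epithelial genes -2.07 to -0.75 in SKI-606 and -3.97 to -2.47 in vehicle samples. SKI-606 and vehicle values overlapped for the pericyte, basal, squamous and skeletal muscle lists.

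**Figure D3:**
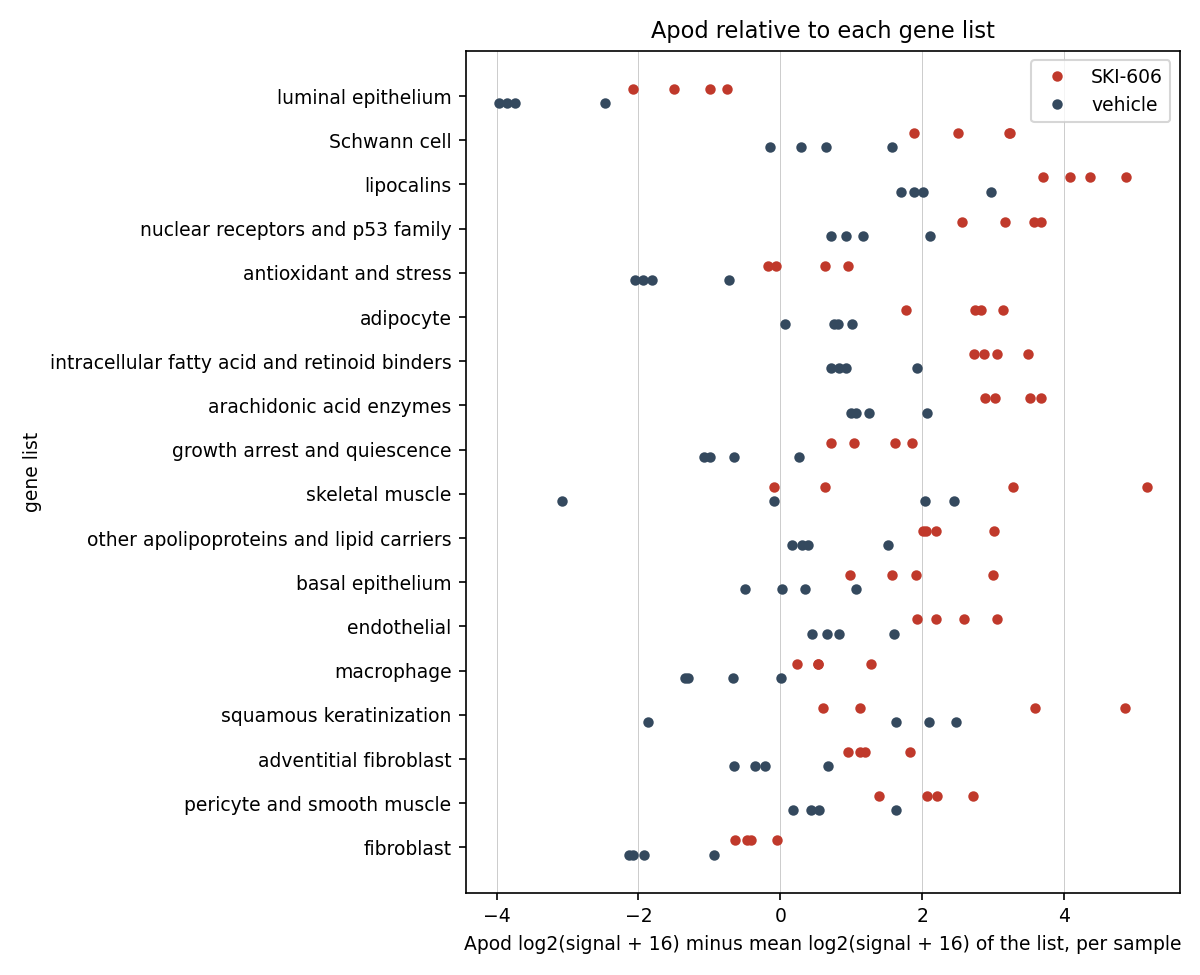
Log2(signal + 16) of Apod minus the mean log2(signal + 16) of each of 18 gene lists (rows), 1 point per sample, with SKI-606 points (red) above vehicle points (blue) in each row. The list of 2 binding partners is not drawn; Apod lies below the mean of the fibroblast genes in every sample, at -0.64 to -0.04 in SKI-606 and -2.14 to -0.94 in vehicle samples, and the separation of the groups follows largely from the choice of Apod.

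The genes whose pattern was most like that of Apod were sought by Pearson's r of log2 values over the 8 samples, among 5044 genes with a mean signal of at least 50 and at least 2 times between the lowest and highest sample. Because Apod separates the groups, a gene with r near 1 has to differ between them as well, so that 10 of the 12 genes had groups without overlap is no finding. The points share arrays and their normalization, and no p is given. The 12 genes had r from 0.93 to 0.96, and 40 genes had at least 0.9, where the median over the 5044 was -0.12. Csf1, a macrophage growth factor gene, was first with r of 0.96. It had 301, 286, 232 and 348 in SKI-606 samples 1 to 4, against 138, 138, 172 and 199 in vehicle samples 1 to 4. Il34, which encodes the other ligand of the same receptor, had r of 0.93, with 74.1, 63.3, 75.4 and 91.4 in SKI-606 samples 1 to 4, against 36.1, 31, 34.9 and 42.1 in vehicle samples 1 to 4. Like Apod, both were highest in SKI-606 sample 4 and, among vehicle samples, in sample 4.

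Others of the 12 encode receptors and signalling proteins. The related hedgehog co-receptor genes Cdon and Boc had r of 0.93 and 0.93, and Ntn1, which encodes the guidance cue netrin-1, 0.94. Boc was nearly level within SKI-606, at 447, 444, 446 and 425 in SKI-606 samples 1 to 4, against 211, 219, 158 and 284 in vehicle samples 1 to 4. Kit, a growth factor receptor gene, had r of 0.93, with 940, 1123, 917 and 1130 in SKI-606 samples 1 to 4, against 584, 595, 442 and 940 in vehicle samples 1 to 4. Its groups overlapped, since vehicle sample 4 reached the level of SKI-606 sample 1. Arrb1, an arrestin gene of receptor endocytosis, had r of 0.96, Ano6, a membrane lipid scramblase gene, 0.95, and Fkbp9, a chaperone gene of the endoplasmic reticulum, 0.95. The remaining 3 were Sertad4 (0.94), Cdr2l (0.94) and Gimap4 (0.93), a GTPase gene of lymphocytes. Log2 fold changes of the 12 ran from 0.62 to 1.04, where Apod was at 2.14. Without vehicle samples 2 and 3, the farthest from the median of Apod, r ran from 0.87 to 0.996, and without the 3 samples that stood apart from 0.86 to 0.99.

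Which genes came first rested on single samples. With each sample left out in turn, 2 to 10 of the 12 were again among the first 12, and the fewest, 2, remained when SKI-606 sample 2 was left out. Leaving out vehicle sample 1 kept 3, SKI-606 sample 1 kept 5 and SKI-606 sample 3 kept 7. Other probes of the same genes also differed. Of 9 like genes with further probes, 5 had another with r of at least 0.7, such as Fkbp9 at 0.93, Boc at 0.94 and Ano6 at 0.92. The other 3 Csf1 probes had r of 0.74, 0.25 and -0.20. Further probes of Kit, Ntn1, Cdr2l and Cdon had r of 0.50, 0.24, -0.03 and -0.06, those of Ntn1 and Cdon with mean signals of 18.2 and 2.48.

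The most opposite genes were Adgrg3, an adhesion receptor gene, and Abcb9, a peptide transporter gene of lysosomes, both with r of -0.97. Adgrg3 had 95.8, 57.8, 103 and 60.6 in SKI-606 samples 1 to 4, against 156, 188, 172 and 123 in vehicle samples 1 to 4. It was lowest in SKI-606 samples 2 and 4, which had the most Apod. Siah2, a ubiquitin ligase gene, and Bckdk, which encodes a kinase of branched-chain amino acid breakdown, had r of -0.93 and -0.93. Fcmr, an IgM receptor gene, and Tnfrsf11a, which encodes RANK, had -0.92 and -0.91. At r of at most -0.9 there were 10 genes.

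Within the groups, the genes of highest r with Apod were mostly others. Here r was taken over the deviations of each sample from the mean of its group, so that the difference between SKI-606 and vehicle plays no part. Of the 8 genes of highest r, 1, Fkbp9 at 0.92, was also among the 12. At r of at least 0.9 there were 7 genes, and the median over the 5044 was 0.01. Among so many genes read in 8 samples, values this high can arise without any link to Apod, and no p is given. Il1rl2, an interleukin-36 receptor gene, was first at 0.96 and had 53.1, 64.9, 36.1 and 75.1 in SKI-606 samples 1 to 4, against 52.5, 41.5, 54.8 and 83.8 in vehicle samples 1 to 4. Its groups overlapped, and its log2 fold change was -0.02 ± 0.22. Irs1, which encodes the insulin receptor substrate, had r of 0.96, with 307, 480, 241 and 614 in SKI-606 samples 1 to 4, against 228, 210, 199 and 419 in vehicle samples 1 to 4. Like Apod, both were highest in sample 4 of each group and lowest, within SKI-606, in sample 3. Gab2, an adaptor gene of receptor kinases, and Lpin2, a phosphatidate phosphatase gene, had r of 0.91 and 0.91. Rbm34 (0.95), Chchd7 (0.92) and Tor3a (0.89) completed the 8. Each of these genes was read by its brightest probe, and r of deviations was not taken for their other probes.

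**Figure D4:**
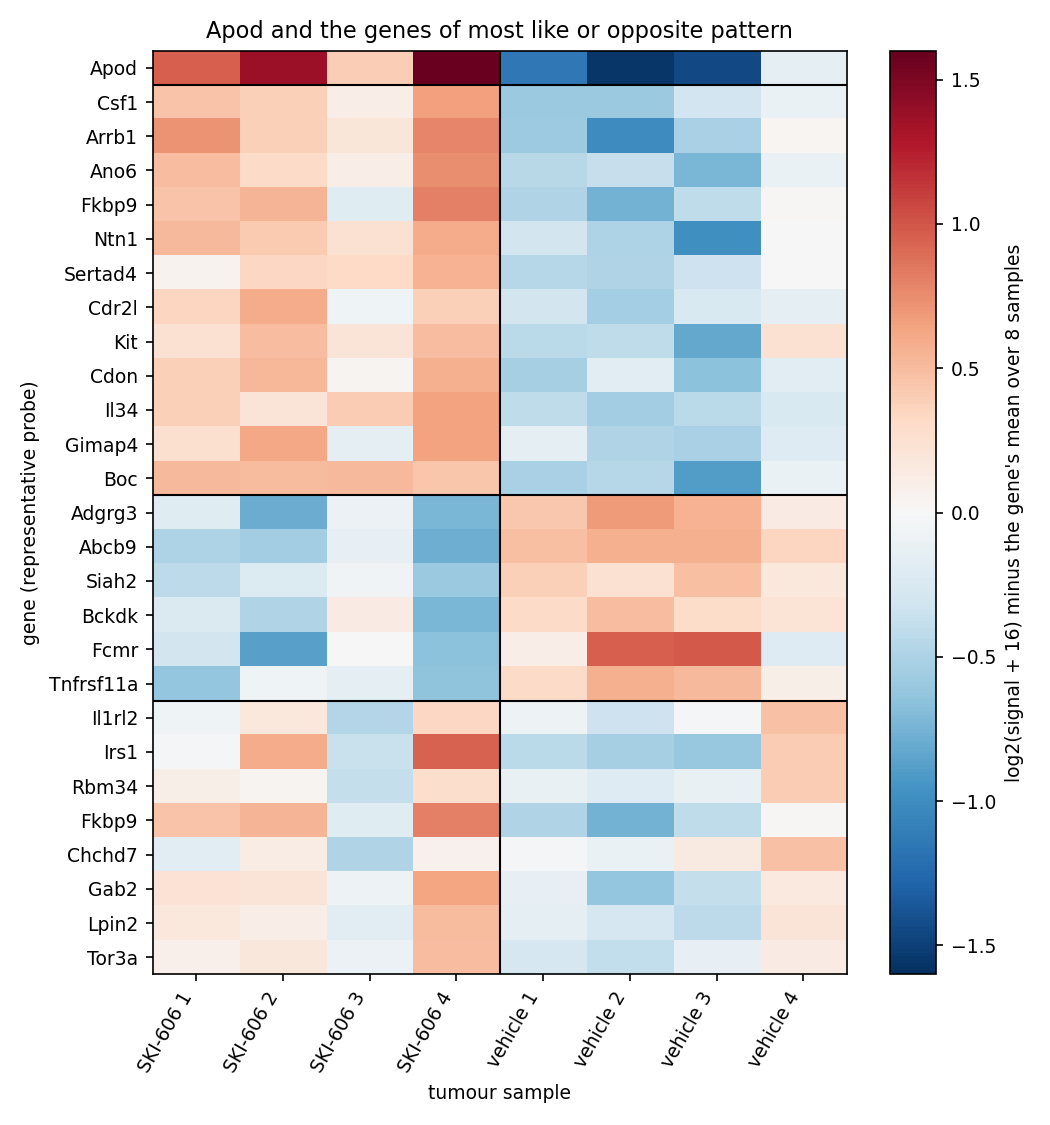
Log2(signal + 16) minus the mean of the gene over the 8 samples (colour, red above and blue below 0), SKI-606 samples left of vehicle samples. Rows are Apod, then the 12 genes of highest r, the 6 of lowest r and the 8 of highest r within groups; Apod has the deepest colours, and Il1rl2, Rbm34 and Chchd7 show no step between the groups, with log2 fold changes of -0.02, 0.02 and -0.24.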

How the data were processed

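The authors deposited linear ratios per probe and array. Per the labels' protocols, RNA of mammary tumours was labelled as Affymetrix recommends; no software, normalization or scan date is stated there. From the values, each signal had been divided by the median of its array and of its probe, with a constant divisor for probes of median signal below 10 and a lowest value of 0.01. Whole-number signals were recovered for all 45101 probes (tolerance 0.002, or 3e-07 of the signal; 0.01 for dim probes) and gave back every ratio within a relative 0.0001. Of 3000 simulated probes 99.8% came back exactly.

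After 64 control probes were left out, signals were quantile normalized, 16 was added and log2 taken. limma 3.58.1 (R 4.3.3) was fitted on 45037 probes without covariates, with Benjamini-Hochberg adjustment over all, and tested on simulated data. Of these probes 34945 had 1 symbol, 932 several and 9160 none; the brightest probe with 1 symbol represented a gene. Named genes are Apod, the 12 most like, 6 most opposite and 8 most like within groups, the 5 widest differences without overlap (Apod included) and the 5 with, up to 4 members of smallest p per list, and any lipocalin or partner. The gene and the lists (299 entries, 278 measured) were chosen with earlier results of these data known.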

Additional observations from a re-analysis of the deposited data

Results flagged for a closer look

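Both Apod probes and the named genes of like or opposite pattern were searched for a sample far from the other 3 of its group, by its gap to the nearest relative to the range of the group. Of 54 groups of 4 samples, 2 held one, where chance gives about 1 in 20. Boc had 425 in SKI-606 sample 4, against 444 to 447 in the other SKI-606 samples. Rbm34 had 76.4 in vehicle sample 4, against 44.3 to 47.9 in the other vehicle samples. Neither Apod probe held such a sample.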

How the results depend on the processing

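The log2 fold change of Apod moved by less than 1 SD between replicates in 15 of 17 alternatives. It was 0.19 on the dim probe and 1.17 for the mean of both probes. Over all genes the median log2 fold change was -0.02, against 0.10 with scaling to a common array median and 0.16 on the deposited ratios; relative to it Apod stood at 2.16, 2.27 and 2.35. limma called 0 probes in each of 17 alternatives, which had 1693 to 4923 probes with unadjusted p under 0.05. Genes without overlap on the higher side numbered 749 both with scaling to a common array median and on the deposited ratios, against 435. Of the 12 genes most like Apod, 1 was kept by Spearman's rho, 1 by deviations from group means, 6 without normalization and 2 to 10 with each sample left out. Over 8 samples rho ties between genes, such as Arrb1, Fkbp9 and Ntn1 at 0.95, so the count for rho rests in part on how ties were ordered. The cause of the other changes was not tested. Log2 fold changes near 0 changed sign. Il1rl2 was at 0.024 without normalization, 0.21 with median scaling and 0.26 on the deposited ratios, and at -0.13 to 0.14 with each sample left out. Rbm34 was at -0.20 without the 3 samples that stood apart and -0.072 to 0.16 with each sample left out. Chchd7 was at 0.0066 with median scaling and 0.0039 on the deposited ratios. Of 304 list medians under alternatives 20 moved by more than the spread between replicates. With the replicate block, Apod was at 2.14 and 0 probes were called, with 3856 at an unadjusted p under 0.05; deviations of same-numbered samples correlated at 0.02, 0.11, -0.15 and -0.11, so the numbers were not taken as pairs. Probes as dim as the second Apod probe limit what can be ordered.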
